A study of Mus musculus with 8 samples.

Results

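Antibody genes were read here in RNA from splenic regulatory T cells (Tregs), a class of CD4 T cells defined by Foxp3 that do not themselves make antibody. The genes were those annotated as immunoglobulin constant, variable (V), diversity (D) or joining (J) genes that reached 1 FPKM (fragments per length of transcript and per size of library) in at least 2 of the 4 libraries from tumor-bearing mice. This rule kept 32 of 264 annotated genes. They were 11 of 142 heavy chain genes (prefix Igh), 12 of 106 kappa light chain genes (Igk) and 9 of 12 lambda light chain genes (Igl), while the 4 annotated genes with other symbols were not kept. By class they were 6 constant genes, 14 V, 1 D and 11 J segments. The genes were chosen by the tumor FPKM values, so those values are given as a description, with no test.

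RNA was sequenced after SMART-Seq v4 amplification, which makes full-length cDNA from little starting material, in 8 libraries of 4 groups of 2. The groups were SRC-3KO Tregs from mice without a tumor, controls without a tumor, SRC-3KO Tregs from tumor-bearing mice and controls from tumor-bearing mice, all from C57BL/6 spleens. Per the extract protocol the Tregs were sorted for GFP. SRC-3 is the product of Ncoa3 and a coactivator of nuclear receptors, and the design asks how Tregs that lack it differ from control Tregs. Control replicate 1 without a tumor was named as wild type, with no GFP in its source label, while the other 3 controls were named for Foxp3-Cre, a recombinase driven by the Foxp3 gene. The names of both SRC-3KO libraries without a tumor hold Tam1, a term that the labels do not explain. The ages, the kind of tumor and the deleted stretch of Ncoa3 are not stated, and the labels do not say that replicates came from separate animals, so any p-value measures only the spread between these samples, which may be technical. Libraries without a tumor were deposited as counts, with totals of 27452922 and 31075452 in SRC-3KO and 25251597 and 24159217 in controls. Tumor libraries were deposited as FPKM, with sums of 416186 and 408458 in SRC-3KO and 514349 and 463082 in controls, and their depth is unknown. No library is in both tables, so levels with and without a tumor were not compared.

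The labels were checked against a few genes. Ncoa3 was at 47.5 and 27.7 FPKM in tumor SRC-3KO libraries and 37.7 and 45.4 FPKM in tumor controls, so the library labelled SRC-3KO replicate 1 lay above both controls. Without a tumor Ncoa3 was at 39.8 and 24.5 CPM (counts relative to the library total) in SRC-3KO and 131 and 58.7 CPM in controls. Foxp3 was at 20.1 and 28.8 FPKM in tumor SRC-3KO and 18.4 and 14.7 FPKM in tumor controls, and at 21.2 and 9.33 CPM in SRC-3KO libraries and 230 and 22.3 CPM in controls without a tumor. The 12 genes of a Treg and T cell list summed to 3506 and 3372 FPKM in tumor SRC-3KO and 3547 and 2543 FPKM in tumor controls. Neutrophil genes set 1 tumor library apart. The 9 genes of that list summed to 1.69 and 0.180 FPKM in SRC-3KO, against 4.72 FPKM in control replicate 1 and 3988 FPKM in control replicate 2. The 8 monocyte and macrophage genes summed to 119 and 114 FPKM in SRC-3KO and 110 and 2236 FPKM in controls. Without a tumor the neutrophil genes summed to 0.0364 and 0.0322 CPM in SRC-3KO, against 0.0792 CPM in control replicate 1 and 333 CPM in control replicate 2.

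An antibody is built of paired heavy and light chains. In B cells a V segment is joined to a J segment, with a D segment between them in the heavy chain, and the joined exon is spliced to a constant exon set, so that V, J and constant reads of a chain come from the same messenger RNA. The constant gene names the class: Ighm codes for IgM, Ighd for IgD, the Ighg genes for IgG and Igha for IgA, while Igkc and the Iglc genes complete kappa and lambda light chains. B cells carry the antibody on their surface, and plasma cells secrete it in large amounts. T cells join the segments of their own receptor genes and carry their antibody genes without a productive V, D and J join.

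J segments are short and stand between V and constant in the mature RNA, and their sequences are shown with the stretch that codes for the conserved core of the J region in capitals. The search was for the codons TGG, GGN, NNN and GGN in a row in heavy chain segments, and for TTC or TTT in place of TGG in light chain segments, on the transcript strand in any frame. The pattern was found in 4 of 4 annotated heavy, 4 of 5 kappa and 4 of 5 lambda J segments. The sequences, 5′ to 3′, are those of GENCODE vM21 transcripts (GRCm38, which is mm10). The heavy chain segments lie on the minus strand of chromosome 12.
Ighj1: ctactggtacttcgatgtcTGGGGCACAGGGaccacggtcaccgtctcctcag
Ighj2: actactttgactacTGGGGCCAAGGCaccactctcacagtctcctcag
Ighj3: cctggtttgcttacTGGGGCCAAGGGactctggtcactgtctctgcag
Ighj4: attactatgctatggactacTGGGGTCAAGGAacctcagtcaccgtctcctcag
The kappa segments lie on the plus strand of chromosome 6, and Igkj3, which was not kept, is shown because it lacks the stretch and was listed at 0 FPKM in every tumor library.
Igkj1: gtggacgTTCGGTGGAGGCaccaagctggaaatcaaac
Igkj2: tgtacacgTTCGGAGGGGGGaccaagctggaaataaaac
Igkj3: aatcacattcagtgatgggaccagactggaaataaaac
Igkj4: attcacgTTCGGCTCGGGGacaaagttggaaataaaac
Igkj5: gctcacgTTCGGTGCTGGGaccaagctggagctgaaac
The lambda segments lie on the minus strand of chromosome 16. Iglj4 and Iglj3p were not kept and are not shown. Iglj4 has the stretch and was at 0 FPKM in every tumor library. Iglj3p lacks it and reached 0.925 FPKM in tumor control replicate 2.
Iglj1: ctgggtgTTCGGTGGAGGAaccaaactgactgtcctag
Iglj2: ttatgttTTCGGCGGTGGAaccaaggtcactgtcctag
Iglj3: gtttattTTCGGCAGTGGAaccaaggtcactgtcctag

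Of the lambda constant genes, Iglc2 and Iglc3 are near copies, which limits how well their reads can be told apart. The first 60 bases from the start of the constant exon are shown, with the 14 positions at which the 3 genes are not alike in capitals.
Iglc1: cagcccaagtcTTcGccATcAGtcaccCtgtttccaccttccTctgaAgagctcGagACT
Iglc2: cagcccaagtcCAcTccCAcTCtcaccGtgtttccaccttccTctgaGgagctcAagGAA
Iglc3: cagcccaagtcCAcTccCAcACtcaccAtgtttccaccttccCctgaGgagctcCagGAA
Over the aligned transcripts Iglc2 and Iglc3 were identical at 431 of 452 bases (95.4%), and Iglc1 and Iglc2 at 68.4%. The V segments Iglv1 and Iglv2 were identical at 354 of 366 bases (96.7%), while Iglj2 and Iglj3 were alike at 89.5%. Values of Iglc2 against Iglc3, and of Iglv1 against Iglv2, are therefore uncertain to the extent that the authors' counting split reads between them. Iglj2 also lies inside the annotated span of Iglc2 on the same strand. The kappa J segments and Igkc overlap the noncoding RNA Gm30211 on the same strand, at 0.261 FPKM or less in tumor libraries, and 5 lambda genes overlap the antisense RNA 2010309G21Rik, at 0.949 FPKM or less.

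In tumor-bearing mice the antibody genes kept were nearly all lower in SRC-3KO than in control Tregs, which the rule in part built in. Of the 32 genes, 18 reached 1 FPKM in both controls and in no SRC-3KO library, so they could only be lower. Together they summed to 328 and 303 FPKM in SRC-3KO and 3417 and 4351 FPKM in controls, a ratio of 12.3-fold higher in control. They took 0.0788% and 0.0741% of the library's FPKM in SRC-3KO and 0.664% and 0.939% in controls. Of the 32 genes, 29 had both SRC-3KO values below both control values, 0 had both above and 3 overlapped (Ighj1, Ighd4-1 and Igkv12-46). Over the 12859 genes tested, 24.9% stood below and 27.5% above in this way. Since the rule used these libraries, nothing is read from that count, nor from limma's test, which 6 of the 32 passed as lower and 0 as higher, where 0.0933% of all genes tested passed as lower and 0.0156% as higher (0.109% in all). In bulk RNA, fewer cells of a type and less RNA per cell cannot be told apart.

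**Figure D1:**
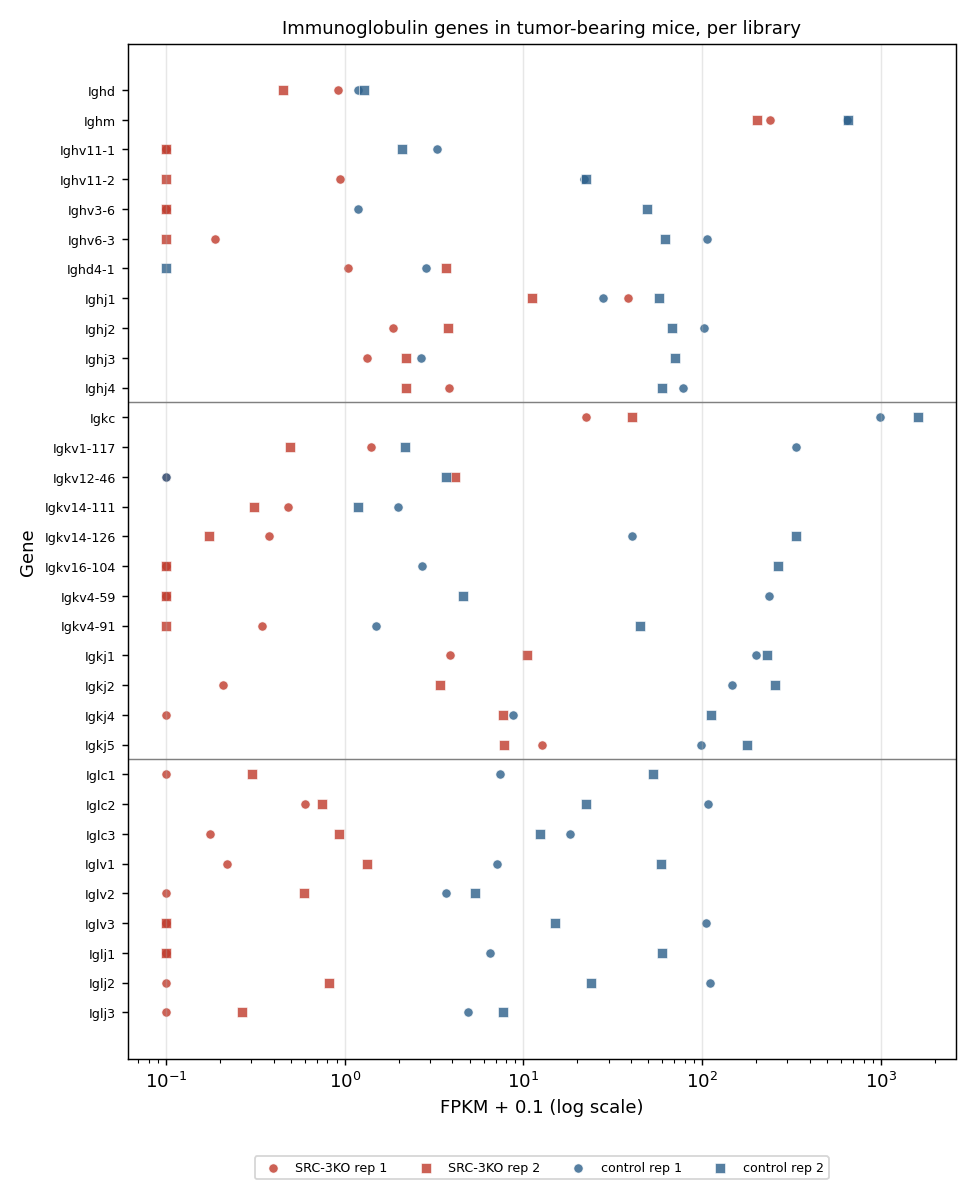
FPKM of the 32 immunoglobulin genes in each tumor library, with 0.1 added so that a value of 0 can be drawn on the log axis; circles are replicate 1 and squares replicate 2, SRC-3KO in red and control in blue, and lines part heavy, kappa and lambda genes. Control points lie right of both SRC-3KO points in 29 of 32 genes.

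The 3 chains differed in how far apart the groups stood. Of the 11 heavy, 12 kappa and 9 lambda genes, 5, 5 and 8 met the rule through the controls alone. The rule thus fixed the direction for a larger part of the lambda genes, and the order of the chains is not read as a result. Heavy chain genes summed to 286 and 224 FPKM in SRC-3KO and 993 and 1049 FPKM in controls, a log2 ratio of group means of -2.0. Kappa genes summed to 41.1 and 74.0 FPKM in SRC-3KO and 2054 and 3044 FPKM in controls (log2 ratio -5.47). Lambda genes summed to 0.694 and 4.29 FPKM in SRC-3KO and 370 and 258 FPKM in controls (log2 ratio -6.98). The groups did not overlap in any of the 3 sums. Without control replicate 2, the library high in neutrophil genes, the log2 ratios were -1.96, -5.16 and -7.21.

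Most of what remained in tumor SRC-3KO libraries was Ighm. Ighm (chromosome 12, 113418558 to 113422730, minus strand), the IgM constant gene, was at 239 and 201 FPKM in SRC-3KO and 646 and 657 FPKM in controls. Igkc (chromosome 6, 70726435 to 70726966, plus strand), the only kappa constant gene, was at 22.4 and 40.4 FPKM in SRC-3KO and 983 and 1612 FPKM in controls. Ighm thus exceeded Igkc per length in both SRC-3KO libraries, and Igkc exceeded Ighm in both controls. Ighd, the IgD constant gene, was at 0.817 and 0.351 FPKM in SRC-3KO and 1.09 and 1.17 FPKM in controls. The constant genes of switched antibody, Ighg1, Ighg2b, Ighg2c, Ighg3, Ighe and Igha, were not kept, and none exceeded 0.882 FPKM in a tumor library. Ighm was thus the only heavy chain constant gene above 1.17 FPKM in any tumor library.

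The Ighm RNA of SRC-3KO libraries came with few V reads. All 113 annotated heavy chain V segments together stood at 0.00638 and 0.0399 of the Ighm FPKM in SRC-3KO and at 0.673 and 0.712 of it in controls. For heavy chain J segments, the summed FPKM over that of the constant genes was 0.187 and 0.0934 in SRC-3KO and 0.324 and 0.389 in controls. Kappa V over Igkc was 0.183 and 0.483 in SRC-3KO and 0.942 and 0.878 in controls, and lambda V over lambda constant was 0.208 and 1.03 in SRC-3KO and 0.863 and 0.896 in controls. In controls the V and constant exons of the light chains were thus near parity per length. The V and J sums in these ratios took all annotated segments, not only those kept. They come from the same tumor libraries that the rule read, and no test was run on the ratios.

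**Figure D2:**
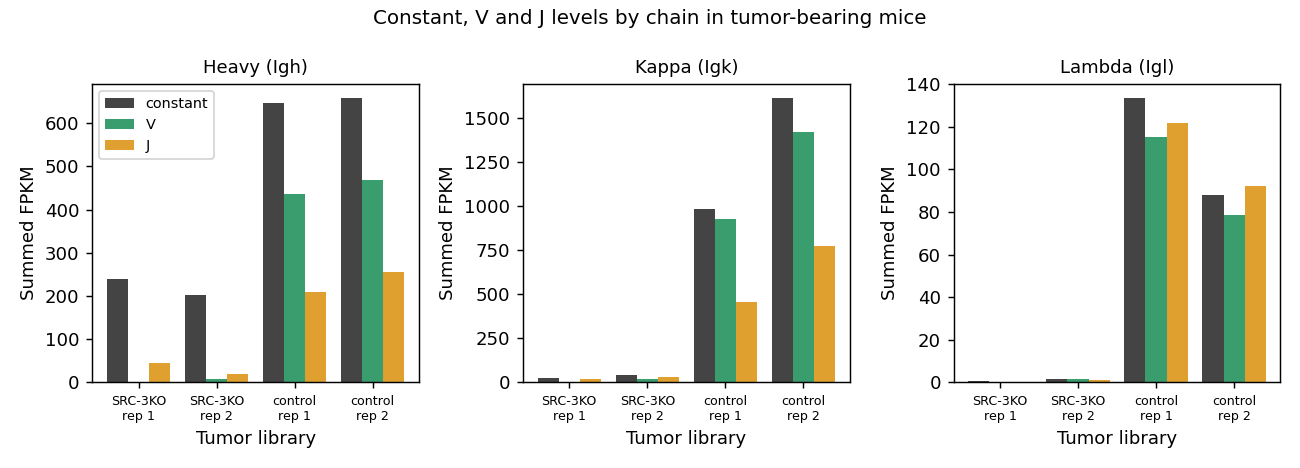
Summed FPKM of all annotated constant, V and J genes of each chain in each tumor library, on an axis from 0 that differs between panels. In the heavy chain panel the V bar of SRC-3KO libraries is near 0 beside a constant bar above 200 FPKM, while the control V bars reach over 400 FPKM.

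The heavy chain V segments kept were Ighv6-3, Ighv11-2, Ighv3-6 and Ighv11-1. Ighv6-3 was at 0.0886 and 0 FPKM in SRC-3KO and 106 and 62.2 FPKM in controls. Ighv11-2, a segment known from the B-1 cells of the body cavities, was at 0.835 and 0 FPKM in SRC-3KO and 21.8 and 22.2 FPKM in controls. Both were high in both controls, which was not so for Ighv3-6, at 0 in both SRC-3KO libraries and at 1.09 and 48.9 FPKM in controls. Ighv11-1 was at 0 in both SRC-3KO libraries and at 3.17 and 1.98 FPKM in controls. Ighv3-6 was also among the genes nearest to the threshold, with a second highest value of 1.09 FPKM, as were Ighd (1.09) and Igkv14-111 (1.08). Just outside it were Ighv1-81 (0.993), Ighv6-6 (0.979) and Ighv1-78 (0.806), each of which was high in 1 control and low in the other 3 libraries.

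Heavy chain J segments differed in how the groups stood. Ighj1, the J segment nearest to the D segments, was at 38.2 and 11.02 FPKM in SRC-3KO and 27.9 and 57.6 FPKM in controls, so the groups overlapped. Ighj2 was at 1.76 and 3.68 FPKM in SRC-3KO and 102 and 68.1 FPKM in controls. Ighj4 was at 3.72 and 2.12 FPKM in SRC-3KO and 77.6 and 59.7 FPKM in controls. Ighj3 was at 1.24 and 2.12 FPKM in SRC-3KO, against 2.56 FPKM in control replicate 1 and 70.7 FPKM in control replicate 2. Ighj1 was the only heavy J segment above 4 FPKM in SRC-3KO libraries. The D segment Ighd4-1, 11 bases long, was at 0.944 and 3.59 FPKM in SRC-3KO and 2.76 and 0 FPKM in controls, where so short a gene gives little basis for a level.

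Among the kappa V segments kept, the 5 with the highest mean FPKM each stood far higher in 1 control than in the other. Igkv1-117 was at 1.31 and 0.393 FPKM in SRC-3KO, against 336 FPKM in control replicate 1 and 2.08 FPKM in control replicate 2. Igkv4-59 was at 0 in both SRC-3KO libraries and at 236 and 4.50 FPKM in the same controls. The reverse held for Igkv16-104, at 0 in both SRC-3KO libraries and at 2.60 and 264 FPKM in controls, and for Igkv14-126, at 0.276 and 0.0742 FPKM in SRC-3KO and 40.2 and 337 FPKM in controls. Igkv4-91 was at 0.243 and 0 FPKM in SRC-3KO and 1.40 and 44.6 FPKM in controls. Igkv12-46 overlapped, with 0 and 4.06 FPKM in SRC-3KO and 0 and 3.58 FPKM in controls.

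Kappa J segments, which any kappa V segment can join, were mostly high in both controls. Igkj1 was at 3.79 and 10.4 FPKM in SRC-3KO and 200 and 229 FPKM in controls. Igkj2 was at 0.108 and 3.33 FPKM in SRC-3KO and 147 and 256 FPKM in controls. Igkj5 was at 12.6 and 7.67 FPKM in SRC-3KO and 98.0 and 178 FPKM in controls. Igkj4 was the exception, at 0 and 7.55 FPKM in SRC-3KO and 8.68 and 111 FPKM in controls.

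In each control the highest lambda V, J and constant gene stood at like levels. In control replicate 1, Iglv3 was at 105, Iglj2 at 110 and Iglc2 at 108 FPKM. In control replicate 2, Iglv1 was at 58.7, Iglj1 at 59.6 and Iglc1 at 53.2 FPKM. Mouse lambda segments lie in 2 clusters, and each J segment is spliced to the constant gene beside it, so Iglj1 goes with Iglc1 and Iglj2 with Iglc2. The set of the other control was low in each: in control replicate 1 Iglv1, Iglj1 and Iglc1 were at 7.02, 6.40 and 7.28 FPKM, and in control replicate 2 Iglv3, Iglj2 and Iglc2 were at 14.8, 23.9 and 22.3 FPKM. Iglv2 was at 3.58 and 5.24 FPKM, Iglj3 at 4.81 and 7.55 FPKM and Iglc3 at 18.2 and 12.3 FPKM in controls. In SRC-3KO libraries none of these lambda genes exceeded 1.23 FPKM (Iglv1 in replicate 2), and Iglv3 and Iglj1 were at 0 in both.

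**Figure D3:**
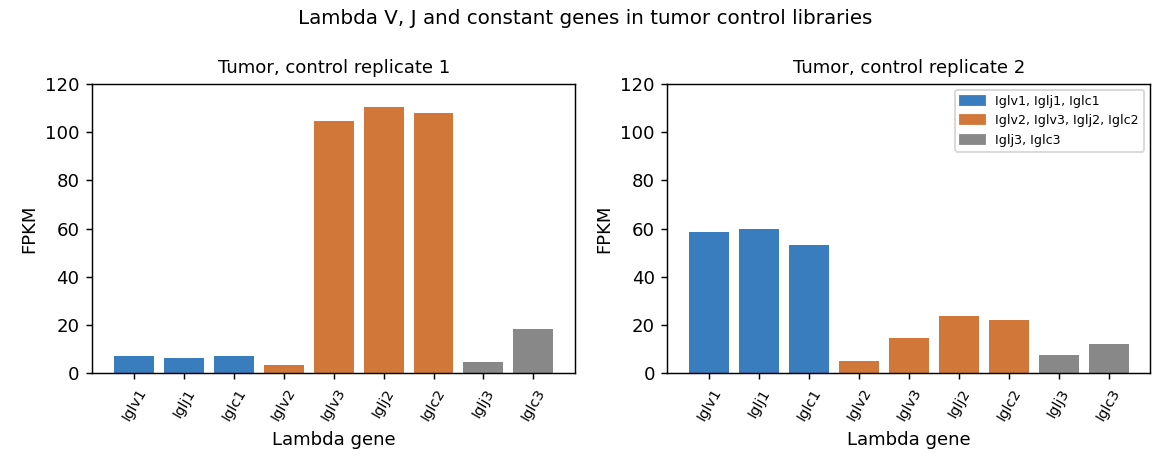
FPKM of 9 lambda genes in the tumor control libraries, replicate 1 at left and replicate 2 at right, on a common axis from 0; colours mark the Iglv1, Iglj1 and Iglc1 set, the genes of the Iglj2 and Iglc2 cluster, and Iglj3 with Iglc3. Iglv3, Iglj2 and Iglc2 stand above 100 FPKM in replicate 1, and Iglv1, Iglj1 and Iglc1 stand between 53.2 and 59.6 FPKM in replicate 2.

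The controls shared few of their leading V segments. Of 113 annotated heavy chain V segments, 0 and 1 reached 1 FPKM in SRC-3KO and 13 and 25 in controls. Of 100 kappa V segments, 1 and 5 reached 1 FPKM in SRC-3KO and 18 and 21 in controls. The 5 highest heavy V segments of the controls had 1 in common, Ighv6-3, and the 5 highest kappa V segments also 1, Igkv14-126. The 3 highest kappa V segments held 83.2% of the kappa V level in control replicate 1 and 58.3% in control replicate 2. Segments outside the rule that led a library, named after their values were seen, were Ighv5-4 (135 FPKM) and Igkv5-39 (197 FPKM) in control replicate 1, and Ighv6-6 (76.8 FPKM) and Igkv12-98 (224 FPKM) in control replicate 2.

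Without a tumor, the summed antibody genes of the groups overlapped. The 32 genes summed to 1303 and 568 CPM in SRC-3KO libraries and 102 and 1847 CPM in controls, so both SRC-3KO libraries lay between the controls. Heavy chain genes summed to 165 and 119 CPM in SRC-3KO libraries and 78.1 and 337 CPM in controls (log2 ratio of group means -0.55). Kappa genes summed to 713 and 289 CPM in SRC-3KO libraries and 24.2 and 1192 CPM in controls (log2 ratio -0.28). Lambda genes summed to 425 and 160 CPM in SRC-3KO libraries and 0.119 and 319 CPM in controls (log2 ratio 0.88). The lowest values all came from control replicate 1, the library named as wild type. That library was also the lowest in the sums of the Treg and T cell list and of the monocyte and macrophage list. The highest of the heavy and kappa sums came from control replicate 2. Without control replicate 1 the 3 log2 ratios were -1.25, -1.25 and -0.12, and without control replicate 2 they were 0.86, 4.37 and 11.27. The sums carry no p, since with 2 libraries against 2 the smallest p of an exact two-sided permutation test is 0.33.

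These libraries had no part in choosing the genes, so edgeR's quasi-likelihood test was read for them here. Of the 32 genes, 13 passed its filter on low counts and 0 passed the test, as did 0 of all 14860 genes (0% called). At an unadjusted p under 0.05 stood 472 genes, 1 of the 13 among them (Iglv2). DESeq2 called 87 genes and limma-voom 0, and DESeq2's calls held 1 of the 13, again Iglv2. Of the 13, 1 was lower in both SRC-3KO libraries (Igkv1-117), 4 were higher in both (Igkv14-126, Iglc2, Iglc3 and Iglv2) and 8 overlapped, where 21.0% of all genes tested were lower in both and 18.3% higher in both. Iglv2, at 0 counts in both controls, passed the filter only through SRC-3KO, so it could only be higher. The median log2 fold change of the 13 was 0.73, beside -0.02 over all genes tested. Genes of a chain share messenger RNA, so the 13 are not separate measures, and nothing is read from these counts or the median. Leaving out a library leaves 1 sample in its group, so no calls are given for such fits.

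In the most abundant constant genes the controls differed more from each other than the group means did. Igkc was at 679 and 277 CPM in SRC-3KO libraries and 16.7 and 1161 CPM in controls, and its log2 fold change was -0.15 (SE 1.65, edgeR adjusted p = 0.981). Ighm was at 163 and 118 CPM in SRC-3KO libraries and 74.7 and 336 CPM in controls, with a log2 fold change of -0.40 (SE 0.96, edgeR adjusted p = 0.931). Without control replicate 2 both log2 fold changes turned positive, to 4.86 for Igkc and 0.94 for Ighm. There replicate 1 is the only control and is assumed to vary as the SRC-3KO libraries do. Ighd was at 1.57 and 0.740 CPM in SRC-3KO libraries and 2.85 and 0.414 CPM in controls. Genes of switched classes had counts in some libraries. Ighg2c, an IgG gene of C57BL/6 mice, was at 0 and 50.6 CPM in SRC-3KO libraries and 0.0396 and 291 CPM in controls, and Igha was at 74.5 and 3.15 CPM in SRC-3KO libraries and 1.15 and 222 CPM in controls. Neither was among the genes kept by the rule, and the groups overlapped in both.

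**Figure D4:**
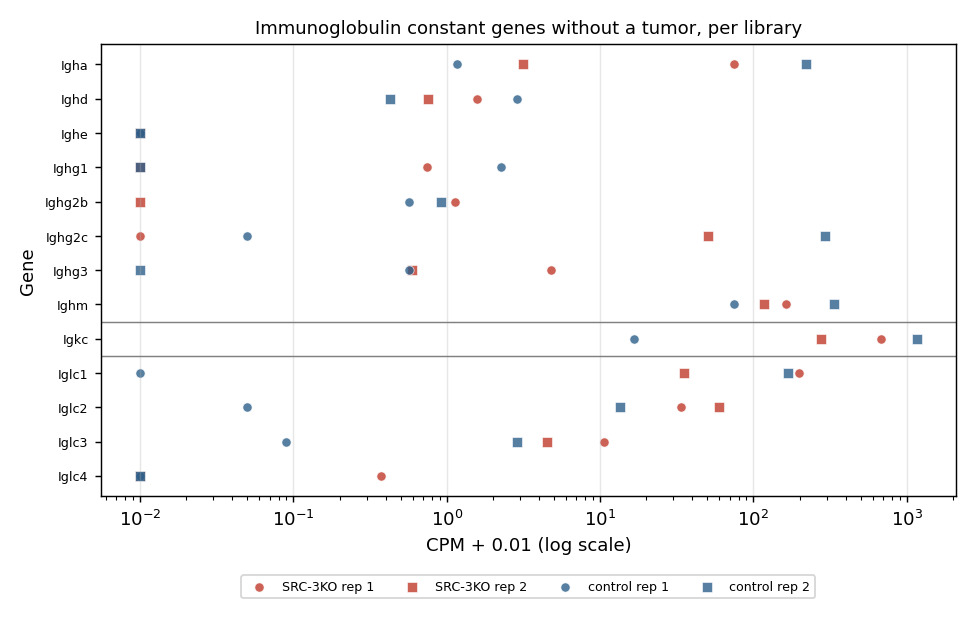
CPM of the 13 annotated immunoglobulin constant genes in each library without a tumor, with 0.01 added so that a value of 0 can be drawn on the log axis; circles are replicate 1 and squares replicate 2, SRC-3KO in red and control in blue. For Igkc and Ighm both SRC-3KO points lie between the controls, and control replicate 1 is the lowest point of Iglc1, Iglc2 and Iglc3.

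Of the 9 lambda genes, 4 had both SRC-3KO values above both control values without a tumor (Iglc2, Iglc3, Iglv2 and Iglv3). Of all genes tested 18.3% stood so, but Iglv3 did not pass the filter on low counts and was not among these. Iglc2 was at 33.6 and 59.6 CPM in SRC-3KO libraries and 0.0396 and 13.5 CPM in controls, with a log2 fold change of 2.98 (SE 1.92, edgeR adjusted p = 0.910). Iglc3 was at 10.6 and 4.51 CPM in SRC-3KO libraries and 0.0792 and 2.86 CPM in controls, with a log2 fold change of 2.51 (SE 1.67, edgeR adjusted p = 0.910). Iglv2 had 123 and 1033 counts in SRC-3KO and 0 in both controls, which put the pooled level at least 325-fold higher in SRC-3KO than the limit set by 3 counts over the control group. From SRC-3KO replicate 1 alone, a bound chosen after seeing the data, it was at least 73.8-fold higher. Its unadjusted p was 0.0031 and its adjusted p by edgeR 0.910, while DESeq2 gave an adjusted p of 2.46e-05. With 0 counts in both controls, Iglv2 passed the filter on low counts only through SRC-3KO, so these p-values are no support for a difference. Iglc1 was at 200 and 35.2 CPM in SRC-3KO libraries and 0 and 169 CPM in controls, and Iglv1 at 173 and 26.8 CPM in SRC-3KO libraries and 0 and 132 CPM in controls, so both overlapped. A count of 0 in control replicate 1 allows a level of up to 0.119 CPM, for counting error only.

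Lambda usage also differed within a group. Iglv1 held 4742 of the 4949 lambda V counts in SRC-3KO replicate 1 (95.8%, Wilson 95% interval 95.2 to 96.3), and 832 of 1876 in SRC-3KO replicate 2, where Iglv2 led with 1033 (55.1%, interval 52.8 to 57.3). In control replicate 2 Iglv1 held 3192 of 3200 (99.8%, interval 99.5 to 99.9). The kappa share of light chain constant counts was 73.6% (interval 73.0 to 74.1) and 73.6% (72.8 to 74.4) in SRC-3KO and 99.3% (97.9 to 99.8) and 86.3% (85.9 to 86.6) in controls. The control replicate 1 share rested on 424 counts, against 11696 or more in the other libraries. Intervals cover counting error only, since PCR copies are not separate molecules. In tumor libraries the kappa share of light chain constant FPKM was 97.5% and 96.0% in SRC-3KO and 88.0% and 94.8% in controls.

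The V segments kept were a minor share of the V counts in 3 of the 4 libraries without a tumor. They held 32.9% and 28.3% of all V counts in SRC-3KO and 58.8% and 17.1% in controls. Igkv14-126 was at 6.19 and 8.72 CPM in SRC-3KO libraries and 2.42 and 1.49 CPM in controls, with a log2 fold change of 2.05 (SE 1.07, edgeR adjusted p = 0.910). Igkv4-91 was at 26.4 and 1.19 CPM in SRC-3KO libraries and 1.23 and 0 CPM in controls. Igkv14-111 had 682 counts in control replicate 2 and 9 or fewer in the other libraries. The segments that led each library, named after their values were seen, were Igkv6-23 with 26.7% of kappa V counts in SRC-3KO replicate 1, Igkv8-30 with 56.9% in SRC-3KO replicate 2 and Igkv17-127 with 35.0% in control replicate 2. Control replicate 1 had 281 kappa V counts in all, led by Igkv1-117 with 72. The heavy chain was led by Ighv14-3 in SRC-3KO replicate 1 (424 counts), by Ighv1-62-2 in SRC-3KO replicate 2 (115) and by Ighv1-55 in control replicate 2 (954), while no heavy V segment of control replicate 1 reached 10 counts.

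**Figure D5:**
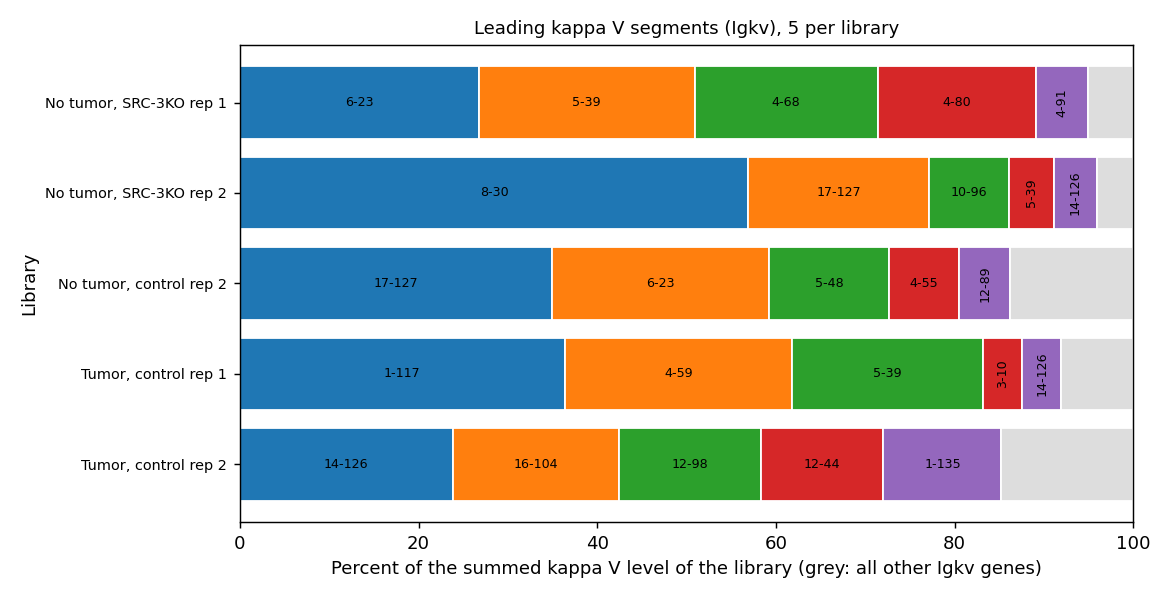
Share of the summed kappa V level held by each of the 5 leading Igkv segments, numbered by their symbol, in 5 of the 8 libraries, leaving out the tumor SRC-3KO libraries and control replicate 1 without a tumor, which were low in kappa V; colours mark rank within a library, and grey is all other segments. The leading segment is a different one in each of the 5 libraries.

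J segments were almost without counts in this table. The J segments kept had 29 counts or fewer in any library without a tumor, in libraries with up to 28041 counts of Igkc, and Ighj2, Ighj3, Igkj4 and Iglj2 had 0 in all 4. Kappa V over Igkc, scaled per length, was 0.966 and 0.970 in SRC-3KO and 0.963 and 0.914 in controls. Heavy chain V over Ighm, per length, was 0.633 and 0.467 in SRC-3KO and 0.118 and 1.42 in controls. Over all heavy chain constant genes the ratio was 0.465 and 0.285 in SRC-3KO and 0.109 and 0.527 in controls. Control replicate 1 was the lowest in both heavy chain ratios and near the other libraries in the kappa ratio.

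Genes that work with antibody were read from lists of 44 genes. Not all of them met the filter in tumor libraries. Of those tested, 3 passed limma's test, all lower in SRC-3KO, where 0.0933% of all genes tested passed as lower. All 3 were below 1 FPKM in both SRC-3KO libraries and so entered the test only through the controls. Their p-values are therefore no support for a difference. With either control left out they were no longer tested. Cd79a, the signal chain of the B cell receptor, was at 0.395 and 0.308 FPKM in SRC-3KO and 10.3 and 8.74 FPKM in controls, with a change of -2.96 on the log2(FPKM + 1) scale (SE 0.24, limma adjusted p = 0.0410). Jchain, which links IgM and IgA into polymers, was at 0 and 0.581 FPKM in SRC-3KO and 43.5 and 61.7 FPKM in controls, with a change of -5.39 (SE 0.32, limma adjusted p = 0.0204). Mzb1, a chaperone of antibody assembly, was at 0.0491 and 0.507 FPKM in SRC-3KO and 16.9 and 19.1 FPKM in controls, with a change of -3.91 (SE 0.28, limma adjusted p = 0.0296). Each missed the threshold with a pseudocount of 0.1, with no filter or with median-of-ratios scaling, where the adjusted p lay between 0.0548 and 0.278. They were 1 of 5 tested of the receptor signal list (median change -1.82) and 2 of 5 tested of the polymer and secretion list (median -0.13), where the median over all genes tested was -0.02.

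The other lists held no call. Of the antibody receptors 0 of 2 tested passed, and Fcmr, the IgM receptor, was at 0.121 and 0.433 FPKM in SRC-3KO and 5.79 and 4.08 FPKM in controls (limma adjusted p = 0.121). Of the B lineage transcription factors 0 of 5 tested passed. Bach2, which holds back plasma cell differentiation, was at 1.72 and 1.64 FPKM in SRC-3KO and 5.17 and 7.65 FPKM in controls (limma adjusted p = 0.144), and Prdm1, which drives it, was at 20.6 and 18.3 FPKM in SRC-3KO and 9.75 and 10.5 FPKM in controls (limma adjusted p = 0.164). Both are also expressed by Tregs. Of the recombination and switching genes 0 of 2 tested passed, and Rag1 and Rag2, the enzymes of V(D)J joining, were listed at 0 in every tumor library. No gene of the surrogate light chain list was tested with a tumor. Without a tumor 0 genes of any of these lists passed, and Jchain was at 72.3 and 45.9 CPM in SRC-3KO libraries and 0.0396 and 118 CPM in controls, lowest in control replicate 1 as the lambda genes were.

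Most markers of B cells were also lower in tumor SRC-3KO libraries. The 15 genes of that list summed to 15.5 and 14.1 FPKM in SRC-3KO and 47.0 and 40.5 FPKM in controls, with 11 of 15 lower in both SRC-3KO libraries, 1 higher (Fcer2a) and 3 overlapping, where 24.9% of all genes tested were lower and 27.5% higher. Ms4a1, which codes for CD20, was at 0.00600 and 0.0801 FPKM in SRC-3KO and 0.812 and 1.70 FPKM in controls. Some other members did not go this way. Fcer2a was at 0.217 and 0.583 FPKM in SRC-3KO and at most 8e-06 FPKM in controls, Cd22 at 0.501 and 0.578 FPKM in SRC-3KO and 0.367 and 0.696 FPKM in controls, and Pax5, the factor that defines the lineage, at 0.0132 FPKM or less in every tumor library. Cd79b, the partner chain of Cd79a, was at 11.7 and 9.19 FPKM in SRC-3KO and 18.9 and 13.7 FPKM in controls (limma adjusted p = 0.324). The 12 plasma cell genes, several of which Tregs also express, summed to 406 and 386 FPKM in SRC-3KO and 413 and 488 FPKM in controls, with 5 of the 12 below both controls in both SRC-3KO libraries and 2 above, beside the same 24.9% and 27.5%, and Tnfrsf17 at 0 in all. Without a tumor the B cell list summed to 96.4 and 38.4 CPM in SRC-3KO libraries and 40.5 and 53.5 CPM in controls, and the plasma cell list to 523 and 582 CPM in SRC-3KO libraries and 454 and 736 CPM in controls. The part of B lineage cells in the antibody gene values was not tested.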

How the data were processed

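Per the submitters' processing notes, the authors' pipeline named STAR, featureCounts, edgeR, Trim Galore and FastQC, on the mouse build mm10, and column names add StringTie. No versions, strand setting or annotation release are stated. One deposited table has raw read counts per gene for the 4 libraries without a tumor, and the other deposited table has FPKM values for the 4 tumor libraries. Positions, lengths and sequences came from GENCODE vM21 by gene ID (all 32 genes matched).

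CPM is the count over the library total, and RPKM divides it by exon length. Counts were tested with edgeR 4.0.16 in R 4.3.3 (filterByExpr, TMM, quasi-likelihood test, common dispersion 0.791), and FPKM with limma 3.58.1 and an intensity trend on log2(FPKM + 1), where 2 libraries reached 1 FPKM. Both adjusted p by Benjamini-Hochberg over all genes tested, with a threshold of 0.05. Both were also run on simulated data. There edgeR was required to recover planted changes only at a dispersion below that of these data. Its recovery at the dispersion of these data is not given. No fit had covariates. The fits were repeated with limma-voom, DESeq2 1.42.0, other filters, scalings and pseudocounts, a replicate block and leaving out each library.

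Genes named were, by rule, every constant gene kept, up to 5 V and 5 J or D segments per chain by mean FPKM or CPM, the 3 on either side of the threshold, and list members that passed or had the smallest adjusted p. The genes, lists and rules were chosen with earlier results of these data known. Some list members are not reported here.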

Additional observations from a re-analysis of the deposited data

Results flagged for a closer look

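Some genes were lower in both SRC-3KO libraries with a tumor and higher in both without one. This is stated from the values, as the difference between the states was not tested, and the states come from tables in different units. The difference of means, SRC-3KO minus control, of Iglc2 was -64.6 FPKM with a tumor and 39.8 CPM without one, and of Iglc3 -14.8 FPKM and 6.1 CPM. For Iglv2 it was -4.16 FPKM and 18.9 CPM, and for Iglv3 -59.8 FPKM and 1.54 CPM. The kappa segment Igkv14-126 differed by -188 FPKM and 5.5 CPM. All of these antibody genes met the rule through the tumor controls alone, so it fixed their direction with a tumor. Cd79b, a B cell receptor signal chain, differed by -5.86 FPKM and 22.8 CPM. Of the other listed genes, Lyn, Hspa5, Fcgr2b, Adgre1 and Hbb-bt had the same pattern as Cd79b. The share of all genes with opposite directions is not given.

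Prdm1, Foxp3 and Cd4 went the other way. Cd4 was at 114 FPKM or more in tumor SRC-3KO libraries and at 105 FPKM or less in tumor controls. Its level without a tumor was at most 50.9 CPM in SRC-3KO libraries, where controls had at least 66.8 CPM. Prdm1 differed by 9.35 FPKM with a tumor and -9.61 CPM without one, and Foxp3 by 7.86 FPKM and -111 CPM; control replicate 1 without a tumor stood at 230 CPM.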

How the results depend on the processing

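Without a tumor, where 0 genes were called, DESeq2 called 87 and edgeR with no filter 70, each with 1 of the 32 genes. Leaving out a library gave 0 to 7434 genes and 0 to 7 of the 32. With a tumor 14 genes and 6 of the 32 were called. A pseudocount of 0.1 gave 7 and 3, no filter 1 and 0, and median-of-ratios scaling 5 and 2. A replicate block on the numbers shared by the tumor titles gave 72 of the 12859 genes and 18 of the 32. Same-numbered deviations correlated at only 0.0357 over 2 pairs, so the numbers were not shown to pair the samples. Without a tumor the labels pair no samples and no block was fitted. Leaving out a tumor library gave 31 to 2510 genes. It gave 13 calls of 32 and of 30 genes tested without an SRC-3KO library, and 9 of only 13 tested without either control, as the others then failed the filter. With a library left out, its group has 1 sample, assumed to vary like the other group.

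The tumor log2 ratio of summed heavy chain genes was -1.76 as TPM, -1.78 as a share without immunoglobulin genes, -2.42 over all annotated genes and -1.57 over constant genes. Leaving out a library gave -2.19 to -1.83 (heavy), -5.95 to -5.11 (kappa) and -8.82 to -6.19 (lambda) with a tumor, and -1.25 to 0.86, -1.25 to 4.37 and -0.12 to 11.27 without one. The rule at 1 FPKM kept 94 genes if met in 1 library and 8 if in all 4. Kappa shares without a tumor were 62.6% and 64.3% of all light chain genes kept in SRC-3KO and 73.6% and 73.6% of constant genes.

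Of single genes without a tumor, limma-voom turned Ighd (0.10) and Igkc (1.76) positive. With a library left out the log2 fold change ranged from -1.28 to 1.53 for Ighd, -1.19 to 0.94 for Ighm, -1.22 to 4.86 for Igkc, -6.25 to 6.70 for Igkv16-104, -0.95 to 14.67 for Iglc1, -0.24 to 7.24 for Iglj1 and -0.99 to 14.43 for Iglv1. The cause of these shifts was not tested. The unknown depth of the tumor libraries and the 424 light chain constant counts of control replicate 1 limit what the shares can show.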
